A study of Homo sapiens with 56 samples.

Results

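The 36 genes described here encode enzymes that build, reduce, recycle or phosphorylate purine and pyrimidine nucleotides. They were chosen by name, as listed members found in both deposited count tables, and are 36 of the 59081 gene symbols of the smaller table. All 36 passed the filter on low counts in both cell lines. They fall into 5 roles: 12 genes of de novo purine synthesis, 5 of de novo pyrimidine synthesis, 8 of deoxynucleotide supply, 6 of salvage and 5 of phosphate transfer. The study treated 2 established human acute myeloid leukaemia lines, Mv4;11 and KG-1, with 1 µM of either PMR-116 or CX-5461 and sequenced polyadenylated RNA after 3 h or 12 h. Each is an inhibitor of RNA polymerase I, which makes the precursor of the large ribosomal RNAs. Each compound had its own vehicle group at each time, which received a buffer of citric acid and sodium phosphate. There were therefore 8 groups per line, with 3 libraries per group in Mv4;11 (24 libraries) and 4 per group in KG-1 (32 libraries). The library names put KG-1 in batch 2 and name no batch for Mv4;11. The KG-1 counts are also marked as trimmed, and the Mv4;11 counts are not. Line therefore cannot be told apart from batch or trimming in any comparison between the lines. The labels do not say that the replicates came from separate cultures, so the p-values measure the spread between these libraries, which may be technical.

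De novo synthesis builds a purine ring on phosphoribosyl pyrophosphate and a pyrimidine ring from carbamoyl phosphate and aspartate. Salvage enzymes instead reattach phosphate or ribose phosphate to free nucleosides and bases. Ribonucleotide reductase converts ribonucleotides to the deoxynucleotides that DNA synthesis consumes, and nucleotide kinases complete the triphosphates used for RNA and DNA. Ribosomal RNA is the main RNA product of a growing cell, so ribosome production is a large consumer of these triphosphates.

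Library totals ran from 28751758 to 41542156 estimated counts in Mv4;11 and from 31010072 to 72707757 in KG-1. Levels are given as CPM, a gene's counts relative to the library total, scaled within each line, so a level in one line is not on the same scale as a level in the other. CD34, a marker of immature haematopoietic cells, ran from 1795 to 2487 CPM in KG-1 and from 0 to 1.20 CPM in Mv4;11. Haemoglobin HBB was at 0 in every library of both lines, and the T cell marker CD3D ran from 58.5 to 74.8 CPM in KG-1 and from 0 to 0.0538 CPM in Mv4;11. One library stood apart, replicate 3 of the Mv4;11 vehicle for PMR-116 at 12 h. Its RN7SL2 level was 438 CPM, against 9.18 to 15.8 CPM in the other 5 Mv4;11 vehicle libraries at 12 h, and its MT-RNR1 level was 2607 CPM, against 320 to 365 CPM. Counts of members, and the members given by library, are therefore also reported without it for PMR-116 at 12 h. The 2 vehicles of the same line and time differed in 0 members and in 0.0% of all genes tested in each of the 4 such comparisons.

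In Mv4;11 at 12 h, 33 of the 36 members fell and 2 rose after PMR-116, and the same counts held after CX-5461. A member was counted as changed at an adjusted p under 0.05 by edgeR's quasi-likelihood test with Benjamini-Hochberg adjustment over every gene tested in the line. Of all 20495 genes tested, 22.5% fell and 20.7% rose after PMR-116, and 16.5% fell and 14.8% rose after CX-5461. The median log2 fold change of the members was -0.92 after PMR-116 and -0.54 after CX-5461, beside 0.01 and 0.04 for all genes. Levels were more than 2-fold lower for 15 members after PMR-116 and for 5 after CX-5461. SAMHD1 and TK2 were the 2 that rose with both compounds, and CTPS2 was the 1 member that changed with neither. Without the library that stood apart, 33 members again fell and 2 rose after PMR-116, with a median of -0.96. Single members were then at -1.73 (CAD), -1.56 (CTPS1), -1.67 (RRM2), -1.37 (HPRT1), -1.72 (NME1) and 0.39 (SAMHD1), each with the same call as with it. The counts for the difference between times and between lines were 33 and 34 without it. Some markers of cell identity also changed in Mv4;11. PTPRC, the pan-leukocyte antigen CD45, rose by 1.01 ± 0.08 after PMR-116 and by 0.43 ± 0.08 after CX-5461 at 12 h, and PECAM1, of endothelial and some blood cells, by 0.94 ± 0.10 and 0.66 ± 0.10. The 5 fibroblast, endothelial and epithelial markers summed to 108 to 121 CPM after PMR-116, against 55.3 to 70.2 CPM in vehicle, nearly all of it PECAM1. Of 8 myeloid markers tested, 7 fell and 1 rose at 3 h after PMR-116 (13.1% and 11.0% of all genes). After CX-5461 at 3 h, 2 fell and 0 rose (6.61% and 5.05%). At 12 h, 3 of these markers rose and 1 fell with each compound. Their part in the members' changes was not tested. RNA was measured from whole cultures, so fewer cells of a type and less RNA per cell cannot be told apart.

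**Figure D1:**
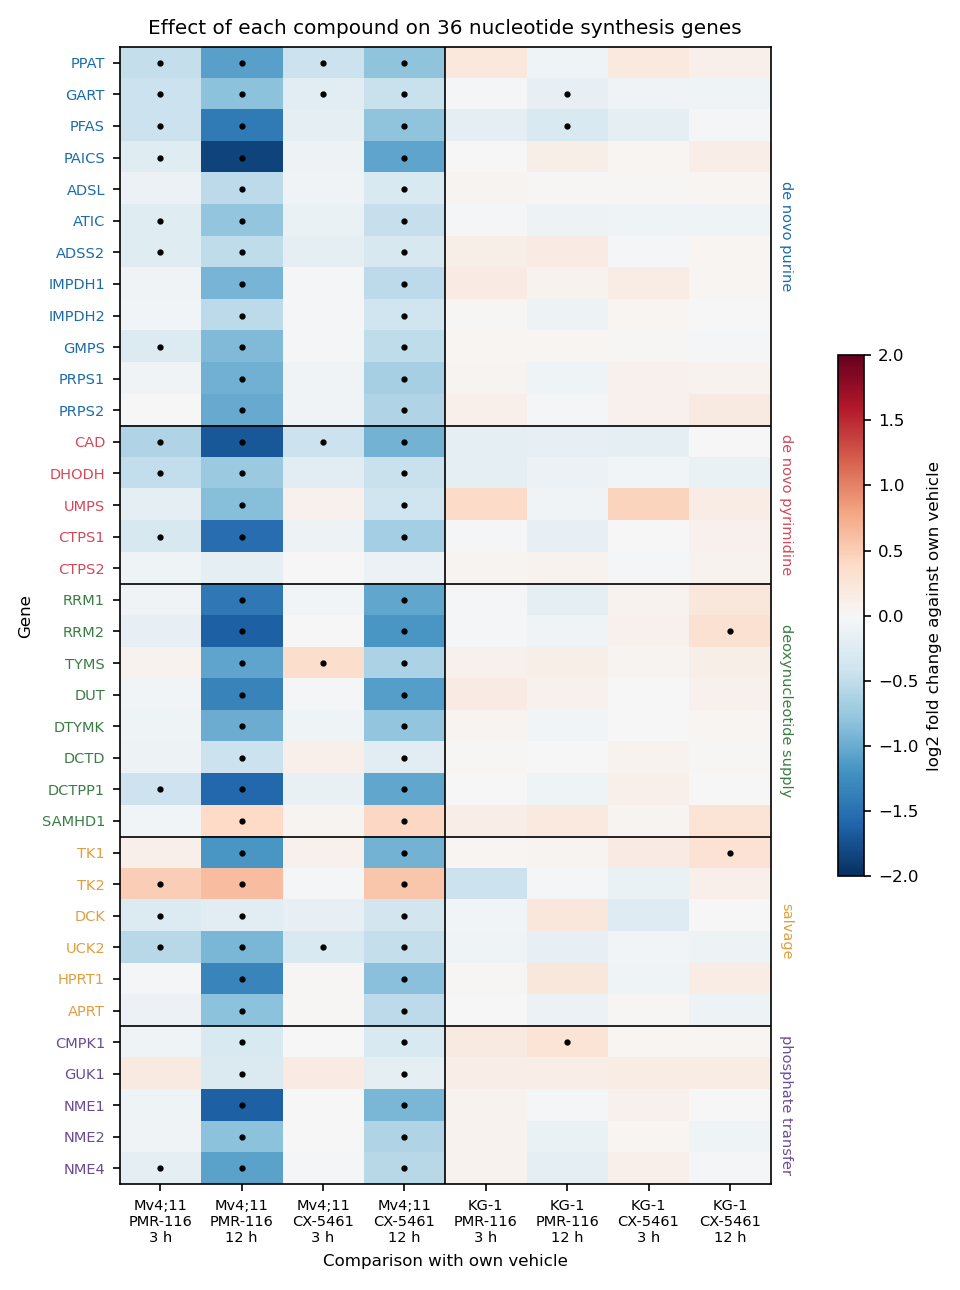
Log2 fold change of each of the 36 members (rows, ordered by role) against its own vehicle in the 8 comparisons (columns), on a colour scale, with marked cells where the adjusted p is under 0.05. The Mv4;11 columns at 12 h hold 33 lower and 2 higher calls for each compound, and the KG-1 columns hold 5 calls in all.

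The 12 genes of de novo purine synthesis fell with both compounds in Mv4;11 at 12 h, 12 of 12 in each. Their median log2 fold change was -0.91 after PMR-116 and -0.52 after CX-5461. PAICS, which carries the carboxylation and succinylation steps of the ring, moved most. Its level was 142, 125 and 127 CPM in the PMR-116 libraries and 519, 481 and 419 CPM in their vehicle libraries. After CX-5461 it was 248, 223 and 225 CPM, against 485, 476 and 485 CPM in vehicle. Treated and vehicle libraries did not overlap for either compound, and the PMR-116 libraries were the lowest of all. The PAICS log2 fold change was -1.84 ± 0.07 (SE) after PMR-116, a 3.59-fold lower level (edgeR adjusted p = 2.28e-15), and -1.06 ± 0.07 after CX-5461 (edgeR adjusted p = 5.76e-11). Without the library that stood apart, the value for PMR-116 was -1.94.

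PFAS, which makes formylglycinamidine ribonucleotide, followed PAICS among the purine genes with a log2 fold change of -1.42 ± 0.08 after PMR-116 and -0.80 ± 0.08 after CX-5461. PPAT, the enzyme of the committed first step, fell by 1.09 ± 0.09 after PMR-116 and by 0.80 ± 0.09 after CX-5461 on the log2 scale. PRPS1 and PRPS2, which supply phosphoribosyl pyrophosphate, fell by 0.96 ± 0.07 and 1.01 ± 0.07 after PMR-116. On the guanine branch, IMPDH1 fell by 0.93 ± 0.06, GMPS by 0.89 ± 0.06 and IMPDH2 by 0.52 ± 0.06 after PMR-116. The smallest changes were those of IMPDH2, ADSL and ADSS2, each at -0.52 after PMR-116. ADSS2 and ADSL carry out the steps that turn IMP into AMP.

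PPAT and PAICS are neighbours on chromosome 4 and are read in opposite directions from 1 promoter region, and both fell together at 12 h, so that region is shown. RefSeq on GRCh38.p14 gives 3 starts for PAICS, and the one nearest the PPAT start lies 137 bases from it. The 136 bases between them, on the plus strand and at 75% G and C, are at chr4:56435616-56435751.
Between PPAT and PAICS: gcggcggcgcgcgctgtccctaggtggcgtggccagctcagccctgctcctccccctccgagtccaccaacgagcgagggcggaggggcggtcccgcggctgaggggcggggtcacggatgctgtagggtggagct

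Windows from 250 bases before to 50 after each RefSeq start were searched on both strands for CACGTG, the E-box bound by MYC and related factors, and for TTTCGCGC, TTTGGCGC or GGCGGGAA, letters of E2F sites. Of the 36 members, 34 had an entry, with 51 windows. The E-box was in 7 windows (13.73%), beside 7.254% of all 35097 windows, and the E2F letters were in 6 (11.76%), beside 4.243%. A match is a description of the letters and not a binding site, and no binding was measured. In DUT a second E2F match, TTTGGCGC, lies 27 bases before the start, and its first letters end the stretch shown for DUT in lower case. Matches of 5 members are shown 5′ to 3′ on the gene's strand, with the motif in capitals: the E-box of PPAT, the upstream one of the pair in ATIC, the one nearest a start (DCTPP1), and the E2F letters in 2 deoxynucleotide genes.
PPAT, chr4:56435780-56435809, minus strand, 182 bases before the start: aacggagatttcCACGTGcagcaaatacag
ATIC, chr2:215312001-215312030, plus strand, 46 bases before the start: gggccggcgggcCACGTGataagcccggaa
DCTPP1, chr16:30429792-30429821, minus strand, 9 bases before the start: ggagggttcctcCACGTGgtcgggaagcgg
RRM1, chr11:4094451-4094480, plus strand, 223 bases before the start: caagaaaaacgTTCCCGCCggttaggtttt
DUT, chr15:48332143-48332172, plus strand, 43 bases before the start: ggggcggggctGGCGGGAAatttcggtttt
The PPAT match also lies in the window of that PAICS start, since that window and the PPAT window share 236 bases. The same E-box is therefore counted in both windows in the E-box share above. The 5 members of these sites all fell in Mv4;11 at 12 h with both compounds, as did members with no match in their windows.

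Of the 5 genes of de novo pyrimidine synthesis, 4 fell in Mv4;11 at 12 h with each compound, and CTPS2 did not pass the test. The median log2 fold change of the role was -0.86 after PMR-116 and -0.44 after CX-5461. CAD, the 3-activity enzyme that starts the pathway, was at 93.5, 84.4 and 86.9 CPM after PMR-116 and at 314, 266 and 275 CPM in its vehicle. After CX-5461 its level was 145, 141 and 155 CPM, against 295, 289 and 267 CPM in vehicle. The groups did not overlap, and every PMR-116 library was below every CX-5461 library. The CAD log2 fold change was -1.69 ± 0.07 after PMR-116 (3.23-fold lower, edgeR adjusted p = 6.54e-15) and -0.95 ± 0.07 after CX-5461 (edgeR adjusted p = 2.6e-10). The middle steps, DHODH in the mitochondrial membrane and UMPS in the cytosol, fell by 0.74 ± 0.10 and 0.86 ± 0.09 after PMR-116.

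CTP synthase, which aminates UTP to CTP, is encoded by CTPS1 and CTPS2. CTPS1 was at 58.2, 48.5 and 51.1 CPM after PMR-116, against 163, 143 and 146 CPM in vehicle, and at 89.8, 87.1 and 86.4 CPM after CX-5461, against 141, 154 and 126 CPM. Treated libraries lay below vehicle libraries in both cases, with log2 fold changes of -1.52 ± 0.09 (edgeR adjusted p = 1.13e-12) and -0.67 ± 0.08 (edgeR adjusted p = 1.15e-06). CTPS2 was at 15.4, 15.7 and 13.97 CPM after PMR-116 and at 15.2, 21.01 and 15.3 CPM in vehicle, which overlapped. Its log2 fold change was -0.19 ± 0.11 after PMR-116 (edgeR adjusted p = 0.189) and -0.11 ± 0.11 after CX-5461 (edgeR adjusted p = 0.507).

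**Figure D2:**
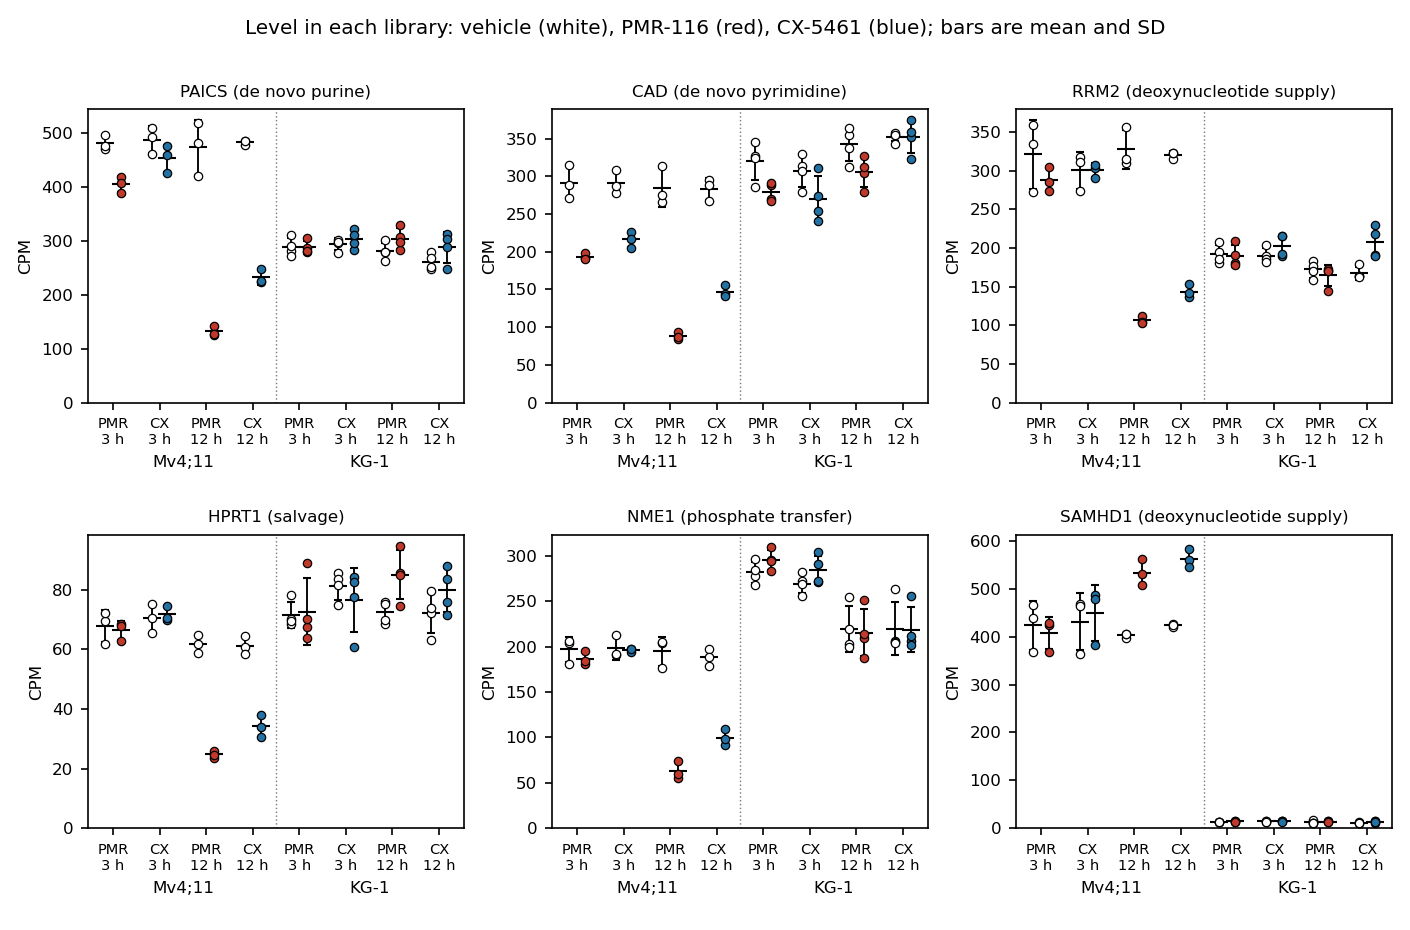
Level in CPM (y axis, from 0) of 6 members named in the text, with 1 point per library and bars at the group mean and SD, for the groups of each line (x axis, vehicle white, PMR-116 red, CX-5461 blue). The 2 lines were scaled separately. For PAICS in Mv4;11 the PMR-116 libraries at 12 h sit between 125 and 142 CPM and their vehicle libraries between 419 and 519 CPM, while the KG-1 groups at 12 h overlap.

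Deoxynucleotide supply had the lowest median of the 5 roles in Mv4;11 at 12 h, at -1.20 after PMR-116 and -0.91 after CX-5461, with 7 of its 8 genes lower and SAMHD1 higher. RRM2, the small subunit of ribonucleotide reductase whose level follows S phase, was at 112, 104 and 103 CPM after PMR-116, against 311, 357 and 315 CPM in vehicle. After CX-5461 it was at 153, 136 and 142 CPM, against 315, 324 and 323 CPM. Every treated library was below every vehicle library. The RRM2 log2 fold change was -1.63 ± 0.08 after PMR-116 (3.08-fold lower, edgeR adjusted p = 1.7e-13) and -1.16 ± 0.08 after CX-5461 (edgeR adjusted p = 1.81e-10). RRM1, the large subunit, fell by 1.42 ± 0.09 and 1.05 ± 0.09 on the same scale.

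Enzymes that make or guard the thymidine and cytidine pools fell as well. DCTPP1, which hydrolyses dCTP and its modified forms, fell by 1.57 ± 0.09 after PMR-116 and by 1.04 ± 0.09 after CX-5461. DUT, which hydrolyses dUTP, fell by 1.34 ± 0.07 and 1.10 ± 0.07. TYMS, which methylates dUMP to dTMP, fell by 1.06 ± 0.07 and 0.63 ± 0.07, and DTYMK, which phosphorylates dTMP, by 1.00 ± 0.07 and 0.79 ± 0.07. DCTD, which deaminates dCMP, had the smallest fall of the 7, at 0.43 ± 0.06 after PMR-116 and 0.22 ± 0.06 after CX-5461, and the latter did not pass without vehicle replicate 1 (edgeR adjusted p = 0.0557).

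SAMHD1, which breaks deoxynucleotide triphosphates down, moved the other way. It was at 531, 508 and 562 CPM after PMR-116, against 397, 407 and 407 CPM in vehicle, and at 560, 546 and 584 CPM after CX-5461, against 421, 426 and 425 CPM. All treated libraries lay above all vehicle libraries. The log2 fold change was 0.40 ± 0.09 after PMR-116 (1.32-fold, edgeR adjusted p = 0.0012) and 0.41 ± 0.09 after CX-5461 (1.33-fold, edgeR adjusted p = 0.00159).

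Of the 6 salvage genes, 5 fell and TK2 rose in Mv4;11 at 12 h with each compound, with a median log2 fold change of -0.86 after PMR-116 and -0.50 after CX-5461. HPRT1, which salvages hypoxanthine and guanine, was at 25.9, 23.7 and 24.7 CPM after PMR-116 and at 65.0, 61.7 and 58.9 CPM in vehicle. After CX-5461 it was at 37.9, 30.6 and 34.1 CPM, against 60.7, 58.4 and 64.5 CPM. Treated and vehicle libraries did not overlap. The log2 fold change of HPRT1 was -1.32 ± 0.08 (2.50-fold lower, edgeR adjusted p = 2.26e-12) after PMR-116 and -0.84 ± 0.08 (edgeR adjusted p = 1.15e-08) after CX-5461. TK1, the cytosolic thymidine kinase of dividing cells, fell by 1.17 ± 0.09 and 0.95 ± 0.09. APRT, which salvages adenine, fell by 0.81 ± 0.09 and 0.52 ± 0.09, and UCK2, which phosphorylates uridine and cytidine, by 0.91 ± 0.08 and 0.48 ± 0.08. DCK, which phosphorylates deoxycytidine and several nucleoside drugs, fell by 0.22 ± 0.08 after PMR-116 and by 0.37 ± 0.08 after CX-5461, and the first of these calls was lost without replicate 1 or 2 of the vehicle.

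TK2, the mitochondrial thymidine kinase, was at 42.2, 42.04 and 47.7 CPM after PMR-116 at 12 h and at 22.6, 22.6 and 40.8 CPM in vehicle. After CX-5461 it was at 34.5, 36.5 and 33.1 CPM, against 20.9, 23.7 and 26.04 CPM. The groups did not overlap, and the highest vehicle value, 40.8 CPM, belongs to the library that stood apart. The log2 fold change was 0.62 ± 0.16 after PMR-116 (edgeR adjusted p = 0.0023) and 0.56 ± 0.16 after CX-5461 (edgeR adjusted p = 0.00807). Without that library the value for PMR-116 was 0.94 (edgeR adjusted p = 6.77e-07), and over the other settings, tools and fits the adjusted p by edgeR or DESeq2 ran from 4.66e-12 to 0.0335.

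All 5 phosphate transfer genes fell in Mv4;11 at 12 h with each compound, with a median log2 fold change of -0.82 after PMR-116 and -0.56 after CX-5461. NME1, a nucleoside diphosphate kinase, was at 74.2, 54.9 and 59.5 CPM after PMR-116, against 204, 205 and 176 CPM in vehicle, and at 109, 91.8 and 98.7 CPM after CX-5461, against 178, 198 and 189 CPM. The treated libraries were below the vehicle libraries in both comparisons. Its log2 fold change was -1.63 ± 0.09 (edgeR adjusted p = 5.69e-13) and -0.92 ± 0.09 (edgeR adjusted p = 2.07e-08). NME1 and its near-identical neighbour NME2 share sequence and a readthrough locus, so the split of reads between them is uncertain, and NME2 was lower by 0.82 and 0.61 on the log2 scale. NME4, the mitochondrial family member, fell by 1.08 ± 0.05 and 0.56 ± 0.05. CMPK1, which phosphorylates UMP and CMP, fell by 0.31 ± 0.06 and 0.30 ± 0.06, and GUK1, which phosphorylates GMP, by 0.28 ± 0.07 and 0.20 ± 0.07. The GUK1 call after CX-5461 was lost without replicate 2 or 3 of either group. With library totals as the scale in place of TMM, the median of all genes moved to 0.18 after PMR-116 and 0.12 after CX-5461, and the members' medians to -0.74 and -0.46. On that scale 31 members fell and 2 rose with each compound, GUK1 lost its call in both, DCK after PMR-116 and DCTD after CX-5461. The share of all calls that were higher moved from 47.9% to 66.2% after PMR-116 and from 47.3% to 61.2% after CX-5461.

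**Figure D3:**
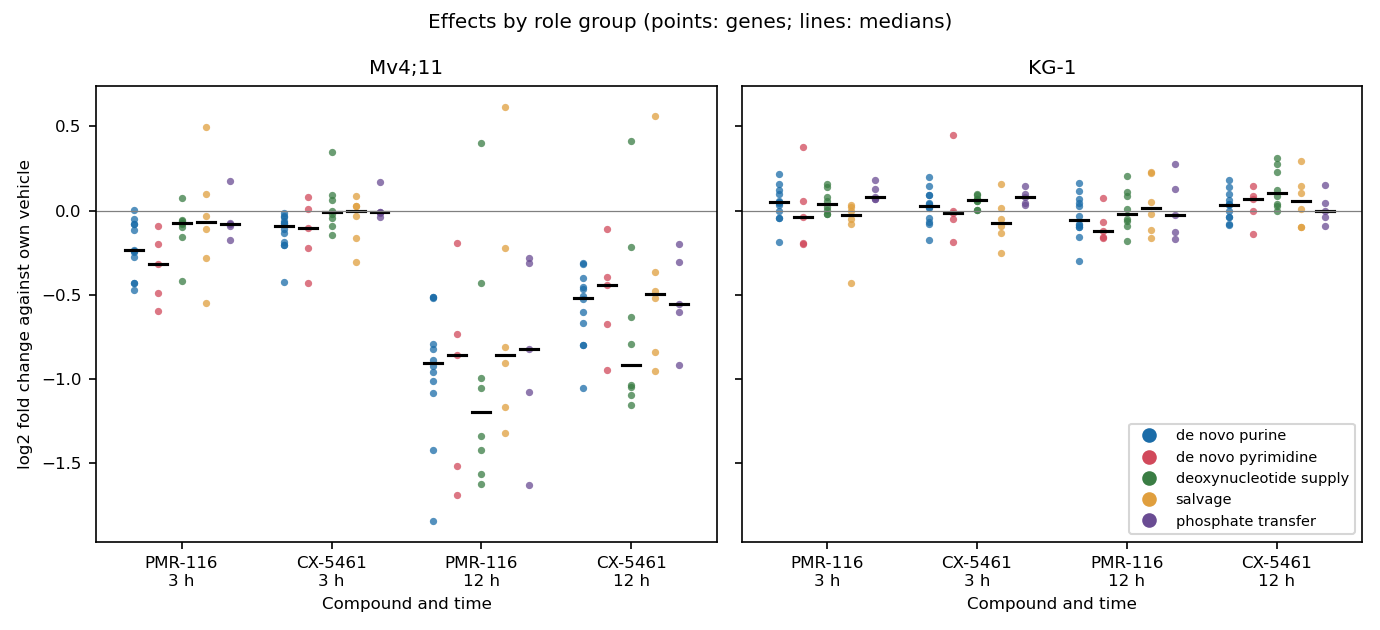
Log2 fold change of the members against vehicle (y axis) by role (colours) for each compound and time (x axis) in both lines, with 1 point per gene and a bar at the median of each role. In Mv4;11 at 12 h the role medians run from -1.20 to -0.82 after PMR-116 and from -0.91 to -0.44 after CX-5461.

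At 3 h in Mv4;11 fewer members had changed: 14 fell and 1 rose after PMR-116, and 4 fell and 1 rose after CX-5461. Among all genes tested, 13.1% fell and 11.0% rose after PMR-116, and 6.61% fell and 5.05% rose after CX-5461. Without PMR-116 replicate 3, 8 members were called after PMR-116 in all, since PAICS, ATIC, ADSS2, CTPS1, DCK, NME4 and TK2 lost their calls, and 3 were called after CX-5461 without replicate 2 of its vehicle or without its replicate 3. The purine role held 7 of the 14 falls after PMR-116 (PPAT, GART, PFAS, PAICS, ATIC, ADSS2 and GMPS) and the pyrimidine role 3 (CAD, DHODH and CTPS1). The others were DCTPP1, UCK2, DCK and NME4. Role medians at 3 h were -0.24 for purine, -0.32 for pyrimidine, -0.08 for deoxynucleotide supply, -0.07 for salvage and -0.08 for phosphate transfer. On the scale of library totals, 12 members fell and 2 rose after PMR-116 at 3 h, and the share of all calls that were higher moved from 45.6% to 56.1%.

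CAD had the largest early fall. It was at 191, 198 and 190 CPM after PMR-116 and at 271, 315 and 289 CPM in vehicle, and at 206, 226 and 217 CPM after CX-5461, against 278, 288 and 309 CPM. Treated libraries were below vehicle libraries for both compounds, with log2 fold changes of -0.59 ± 0.07 (edgeR adjusted p = 7.42e-07) and -0.43 ± 0.07 (edgeR adjusted p = 9.53e-05). PPAT fell by 0.47 ± 0.09 and 0.43 ± 0.09, UCK2 by 0.55 ± 0.08 and 0.30 ± 0.08, and GART, the 3-activity purine enzyme, by 0.43 ± 0.06 and 0.21 ± 0.06. These 4 genes were the ones that fell at 3 h with CX-5461, and both GART and UCK2 lost that call without vehicle replicate 2 or CX-5461 replicate 3, with GART losing it also without vehicle replicate 1 or CX-5461 replicate 2.

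PAICS and RRM2, which had the largest later changes of their roles, moved little at 3 h. PAICS was at 417, 407 and 388 CPM after PMR-116, against 470, 476 and 495 CPM, a log2 fold change of -0.25 ± 0.07 (edgeR adjusted p = 0.00892, and 0.0536 without PMR-116 replicate 3). RRM2 was at 286, 274 and 306 CPM, against 272, 334 and 359 CPM, which overlapped, with a log2 fold change of -0.16 ± 0.08 (edgeR adjusted p = 0.164). TYMS was at 302, 308 and 327 CPM after CX-5461, above the 224, 257 and 256 CPM of its vehicle, with a log2 fold change of 0.35 ± 0.07 (edgeR adjusted p = 0.00133). It then fell at 12 h. TK2 was at 32.4, 27.2 and 33.9 CPM after PMR-116, above the 20.7, 25.05 and 20.8 CPM of its vehicle (0.49 ± 0.16, edgeR adjusted p = 0.0245). That call was lost without replicate 1 or 3 of either group, with an adjusted p of up to 0.105 by edgeR.

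The change between the times was itself tested, as the effect at 12 h minus the effect at 3 h. In Mv4;11 it passed for 31 members after PMR-116, 30 lower and SAMHD1 higher (0.46 ± 0.13), beside 27.6% of all genes. After CX-5461 it passed for 29 members, all lower, beside 16.7% of all genes. The largest values after PMR-116 were -1.60 for PAICS, -1.55 for NME1 and -1.47 for RRM2, and after CX-5461 they were -1.16 for RRM2, -1.08 for DUT and -1.04 for TK1. By role, the median of this difference after PMR-116 was -1.14 for deoxynucleotide supply and -0.61 for purine synthesis. DHODH, CTPS2, TK2 and DCK passed with neither compound. In KG-1 the difference between times passed for 0 members with either compound by edgeR, beside 1.69% of all genes after PMR-116 and 0.263% after CX-5461. With the replicate number as a block, 3 members passed in KG-1 after PMR-116, all lower. That fit called 546 higher and 689 lower of all 18618 genes.

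The 2 compounds were compared at the same dose and time, as the PMR-116 effect minus the CX-5461 effect, in 4 pairs of groups that share no library, with p adjusted over all genes in each. In Mv4;11 at 12 h, 16 members had a lower value after PMR-116 and 0 a higher one, beside 5.11% of all genes called. The difference was -0.84 ± 0.12 for CTPS1 (edgeR adjusted p = 0.00019), -0.79 ± 0.10 for PAICS (edgeR adjusted p = 4.3e-05), -0.74 ± 0.10 for CAD (edgeR adjusted p = 6.9e-05) and -0.72 ± 0.12 for NME1 (edgeR adjusted p = 0.0011). Without the library that stood apart, these were -0.87, -0.87, -0.77 and -0.78, and 17 members were called, the added one being RRM1. The other members called were PFAS, DCTPP1, NME4, HPRT1, RRM2, UMPS, UCK2, TYMS, PRPS2, IMPDH1, GMPS and GART, with differences from -0.62 to -0.37. The UMPS call was lost without any 1 of 6 of the 12 libraries, UCK2 without any 1 of 5, PRPS2 without any 1 of 4, and RRM2 without replicate 2 of the vehicle for PMR-116 (edgeR adjusted p = 0.0619). The roles held 6 of 12 purine, 3 of 5 pyrimidine, 3 of 8 deoxynucleotide, 2 of 6 salvage and 2 of 5 phosphate transfer genes.

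For other members no difference between the compounds was detected. The 95% interval of the difference was -0.27 to 0.25 for SAMHD1, -0.17 to 0.16 for CMPK1, -0.38 to 0.49 for TK2 and -0.46 to 0.03 for TK1. RRM1 (-0.38, interval -0.63 to -0.13, edgeR adjusted p = 0.089) and DUT (-0.25, interval -0.43 to -0.07, edgeR adjusted p = 0.14) missed the threshold after adjustment. PMR-116 had the lower value for 34 of the 36 members, and across the members the 2 effects had a Pearson correlation of 0.947 and a slope of 1.40, which describes 36 genes measured in the same libraries. At 3 h in Mv4;11 the difference passed for 0 members by edgeR, beside 1.34% of all genes, with 9 members at an unadjusted p under 0.05. In KG-1 it passed for 0 members at 3 h (0.0107% of all genes) and at 12 h (0.0483%). The member with the widest 95% interval was TK2 in Mv4;11 at 3 h (0.09 to 0.96) and UMPS in KG-1, at 3 h (-0.58 to 0.44) and at 12 h (-0.73 to 0.30). With the replicate number as a block, CTPS1, RRM2 and TK1 passed in KG-1 at 12 h, each lower after PMR-116. That fit called 62 higher and 117 lower of all 18618 genes.

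**Figure D4:**
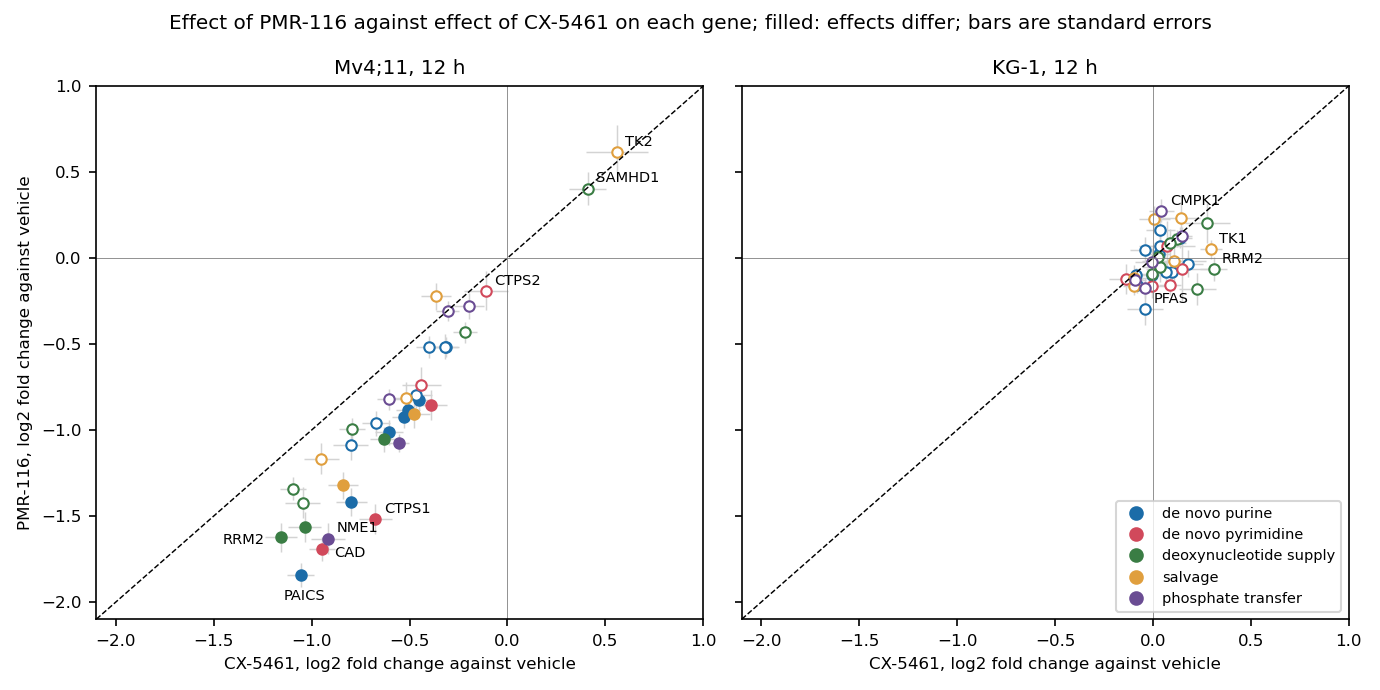
Log2 fold change after CX-5461 (x axis) against that after PMR-116 (y axis) at 12 h for the 36 members, with 1 point per gene coloured by role, filled where the 2 effects differ at an adjusted p under 0.05, SE bars, the line of equal values and 1 panel per line. In Mv4;11, 34 of 36 points lie below the line of equal values, and in KG-1 28 do, with values near 0 on both axes.

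In KG-1 few members changed. At 3 h, 0 members passed by edgeR after either compound, with 7 members at an unadjusted p under 0.05 after PMR-116 and 6 after CX-5461. Among all 18618 genes tested, 3.61% rose and 3.71% fell after PMR-116, and 1.85% rose and 1.58% fell after CX-5461. DESeq2 called 2 and 1 members, and edgeR with the replicate number as a block called 4 and 5, among them PPAT, IMPDH1 and GUK1, higher with both compounds. Those fits also called more of all 18618 genes. DESeq2 called 911 higher and 822 lower after PMR-116, and 641 higher and 464 lower after CX-5461. The block called 1370 higher and 1229 lower after PMR-116, and 1033 higher and 700 lower after CX-5461. At 12 h, 1 member rose and 2 fell after PMR-116 (4.73% and 4.74% of all genes), and 2 rose and 0 fell after CX-5461 (1.36% and 1.18%). With the block, 12 members passed after PMR-116, 3 higher and 9 lower, beside 1649 higher and 1549 lower of all 18618 genes. Without 1 library the count after PMR-116 ran from 1 to 5, and it was 5 without PMR-116 replicate 1 or vehicle replicate 3 and 1 without PMR-116 replicate 3 or vehicle replicate 4. The members' median log2 fold change was -0.04 after PMR-116 and 0.04 after CX-5461 at 12 h. Some members had larger values that did not pass, such as UMPS at 3 h, at 0.38 ± 0.18 after PMR-116 (edgeR adjusted p = 0.248) and 0.45 ± 0.18 after CX-5461 (edgeR adjusted p = 0.201), and TK2, at -0.43 ± 0.17 after PMR-116 at 3 h (edgeR adjusted p = 0.125).

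CMPK1 was the member that rose in KG-1 after PMR-116 at 12 h, at 70.8, 78.4, 79.7 and 77.4 CPM, against 66.4, 63.8, 63.7 and 59.3 CPM in vehicle. The groups did not overlap, and the log2 fold change was 0.27 ± 0.07 (edgeR adjusted p = 0.00661). The same gene fell in Mv4;11. PFAS was at 97.4, 80.1, 97.0 and 101 CPM, against 113, 93.5, 130 and 125 CPM, which overlapped, with a log2 fold change of -0.30 ± 0.09 (edgeR adjusted p = 0.0333). GART fell by 0.16 ± 0.04 (edgeR adjusted p = 0.0222). Both calls were lost without vehicle replicate 1 or 4 or without PMR-116 replicate 3, and the PFAS call also without vehicle replicate 3 or PMR-116 replicate 2. Both were lost in a fit of the 2 groups alone, PFAS also with library totals and GART also with no filter, with a highest adjusted p of 0.122 and 0.132 over these edgeR and DESeq2 alternatives.

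After CX-5461 at 12 h, RRM2 and TK1 rose in KG-1, beside 1.36% of all genes. RRM2 was 1 of 8 genes of deoxynucleotide supply, and TK1 was 1 of 6 genes of salvage. RRM2 was at 229, 218, 191 and 190 CPM, against 179, 164, 163 and 162 CPM in vehicle, and TK1 was at 163, 169, 150 and 141 CPM, against 134, 127, 126 and 121 CPM. Neither pair of groups overlapped. The log2 fold change was 0.31 ± 0.07 for RRM2 (edgeR adjusted p = 0.00981) and 0.30 ± 0.05 for TK1 (edgeR adjusted p = 0.0017). In a fit of these 2 groups alone the adjusted p by edgeR was 0.0845 and 0.0781, the highest of the alternative fits, whose lowest were 6.65e-05 and 3.27e-05, and RRM2 also lost its call without CX-5461 replicate 1. After PMR-116 at 12 h RRM2 was at 170, 173, 145 and 171 CPM, against 184, 177, 158 and 170 CPM, which overlapped (-0.06 ± 0.07, edgeR adjusted p = 0.657).

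The difference between the lines was tested as the Mv4;11 effect minus the KG-1 effect in a fit of both tables. At 12 h it passed for 34 members after PMR-116 (25.4% of all genes) and for 31 after CX-5461 (16.2%). It was lower in Mv4;11 for 33 of the 34 and for all 31. After PMR-116 it was -1.90 ± 0.10 for PAICS (edgeR adjusted p = 1.8e-20), -1.55 ± 0.13 for NME1 (edgeR adjusted p = 1.9e-13), -1.50 ± 0.11 for RRM2 (edgeR adjusted p = 1.9e-15) and -1.49 ± 0.14 for HPRT1 (edgeR adjusted p = 1.9e-12). In KG-1 the PMR-116 and vehicle libraries at 12 h overlapped for PAICS (307, 329, 282 and 297 CPM, against 300, 279, 262 and 279 CPM) and NME1 (251, 210, 188 and 214 CPM, against 255, 203, 199 and 219 CPM). HPRT1 in KG-1 was at 85.6, 85.1, 94.9 and 74.6 CPM, against 75.8, 75.4, 68.6 and 70.0 CPM, with a log2 fold change of 0.23 ± 0.10 (edgeR adjusted p = 0.137). TK2 was the 1 member with a higher effect in Mv4;11 after PMR-116 (0.69 ± 0.24, edgeR adjusted p = 0.024). CTPS2 and SAMHD1 did not pass, with an interval of -0.04 to 0.57 for SAMHD1.

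At 3 h the lines differed in 5 members after PMR-116 (6.94% of all genes) and in 2 after CX-5461 (3.07%). After PMR-116 these were PPAT (-0.64 ± 0.12, edgeR adjusted p = 0.00018), UCK2, CAD, GART and TK2 (0.98 ± 0.24, edgeR adjusted p = 0.0066), and after CX-5461 PPAT (-0.59 ± 0.12, edgeR adjusted p = 0.00082) and TYMS (0.32 ± 0.08, edgeR adjusted p = 0.018). With the replicate number as a block, 8 members passed after PMR-116 at 3 h, beside 1267 higher and 1190 lower of all 23759 genes. Vehicle levels of some members lay far apart in tables that were scaled separately. SAMHD1 had a median of 423 CPM over the 12 Mv4;11 vehicle libraries (364 to 468) and of 12.3 CPM over the 16 of KG-1 (9.85 to 15.97). These ranges do not overlap, and the SAMHD1 change in KG-1 at 12 h was 0.20 after PMR-116 (edgeR adjusted p = 0.311) and 0.28 after CX-5461 (edgeR adjusted p = 0.252).

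For 5 pairs of members that catalyse the same reaction, the log2 ratio of the pair was taken within each library, which removes the library's scale. In Mv4;11 at 12 h after PMR-116 the ratio moved by -1.84 for TK1 over TK2, by -1.34 for CTPS1 over CTPS2, by -0.82 for NME1 over NME2 and by -0.41 for IMPDH1 over IMPDH2. Each of these had groups that did not overlap and a 2-sided exact permutation p of 0.1, the smallest that 3 against 3 libraries allow, and 0.352 after Benjamini-Hochberg adjustment over the 40 ratios tested. PRPS1 over PRPS2 moved by 0.05 (exact permutation p = 0.7). After CX-5461 the TK1 ratio moved by -1.51 and the CTPS1 ratio by -0.56, with the same exact permutation p of 0.1. In the vehicle for PMR-116 at 12 h the log2 ratio of TK1 over TK2 was 1.35 in the library that stood apart and 2.25 and 2.36 in the others. In KG-1 the smallest exact permutation p of the ratios was 0.0286, for TK1 over TK2 at 3 h after PMR-116, which moved by 0.44 (0.352 after adjustment). IMPDH1 over IMPDH2 in KG-1 moved by 0.17 after PMR-116 at 12 h (exact permutation p = 0.0857). A ratio shows that the pair changed unequally and not which of its genes changed.

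**Figure D5:**
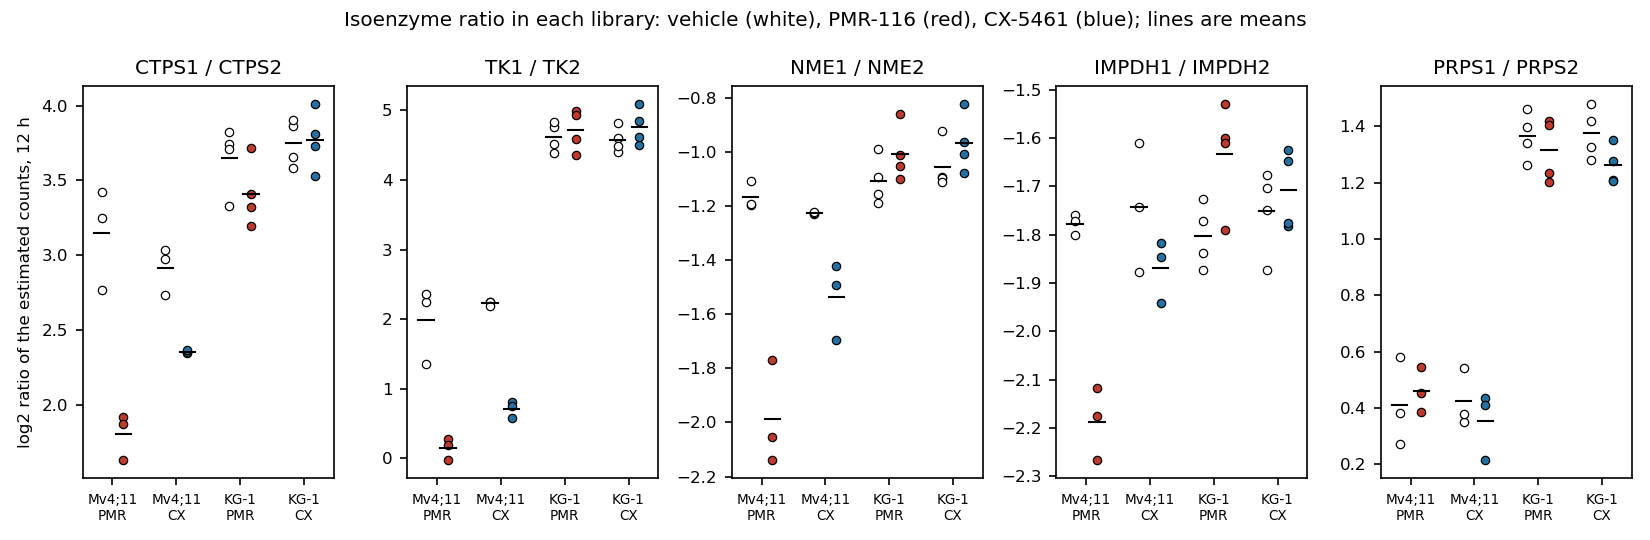
Log2 ratio of 2 members with the same reaction within each library (y axis), with 1 point per library, for vehicle and treated groups at 12 h (x axis) and 1 panel per pair. The TK1 over TK2 and CTPS1 over CTPS2 points of the Mv4;11 PMR-116 libraries lie below those of their vehicle, and the PRPS1 over PRPS2 points overlap.

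Lists of neighbouring pathways were counted in the same fits. For Mv4;11 at 12 h the share of all genes was 22.5% lower and 20.7% higher after PMR-116. After CX-5461 it was 16.5% lower and 14.8% higher. Of 18 genes of folate and one-carbon supply, which feeds carbon to the purine ring and to thymidylate, 14 fell and 1 rose in Mv4;11 at 12 h after PMR-116 (median log2 fold change -0.86), and 15 fell and 1 rose after CX-5461 (median -0.63). ALDH1L2, a mitochondrial formyltetrahydrofolate dehydrogenase, fell by 3.37 after PMR-116, and PHGDH, the first enzyme of serine synthesis, by 2.91 after CX-5461. SLC19A1, the reduced folate carrier, fell at 3 h in both lines and with both compounds, by 1.30 and 0.89 in Mv4;11 and by 1.08 and 0.66 in KG-1 for PMR-116 and CX-5461. In KG-1 2 of the 18 fell after PMR-116 at each time, beside 3.71% of all genes at 3 h and 4.74% at 12 h. After CX-5461 at 3 h 2 fell, beside 1.58%. Of 45 tested genes of other salvage, breakdown and transport, 18 fell and 13 rose in Mv4;11 at 12 h after PMR-116 (22.5% and 20.7% of all genes). After CX-5461 15 fell and 8 rose (16.5% and 14.8%). Among these, RRM2B, the reductase subunit induced by p53, rose at 3 h in Mv4;11 by 0.87 after PMR-116 and by 1.19 after CX-5461. UPB1, of pyrimidine breakdown, rose by 2.57 and 1.48 at 12 h, and AK4, a mitochondrial adenylate kinase, fell by 2.26 and 1.85.

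Genes of DNA replication were counted in the same way. Of 24 such genes, 24 fell in Mv4;11 at 12 h with each compound, with a median log2 fold change of -1.62 after PMR-116 and -1.09 after CX-5461. UNG, which removes uracil from DNA, fell most, by 3.03 and 1.70. At 3 h, 2 rose and 6 fell after PMR-116 (11.0% and 13.1% of all genes), and 1 rose and 2 fell after CX-5461 (5.05% and 6.61%). In KG-1, 0 members passed at 3 h by edgeR. There, 3 replication genes rose at 3 h after PMR-116 (3.61% of all genes) and 5 after CX-5461 (1.85%), and none of the 24 fell. In KG-1 at 12 h after PMR-116, 2 of the 24 were higher (4.73% of all genes) and 2 were lower (4.74%). After CX-5461 at that time, 8 were higher (1.36% of all genes) and 0 were lower (1.18%). Their median log2 fold change after CX-5461 was 0.16. The shares of all genes for Mv4;11 at 12 h are those given above. MYC, a transcription factor with many targets among nucleotide synthesis genes, fell in Mv4;11 by 2.03 and 1.52 at 3 h and by 1.16 and 0.56 at 12 h after PMR-116 and CX-5461. In KG-1 it fell by 0.30 after PMR-116 at 3 h (edgeR adjusted p = 0.0429) and did not pass in the other 3 comparisons. CDKN1A, a p53 target that arrests the cell cycle, rose in Mv4;11 by 2.50 and 3.44 at 3 h and by 2.03 and 2.23 at 12 h, and in KG-1 by 0.96 ± 0.24 after CX-5461 at 12 h (edgeR adjusted p = 0.0224). That KG-1 value rests on low levels, with a mean of 4.47 CPM after CX-5461 and 2.29 CPM in its vehicle. The part of these genes in the members' changes was not tested.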

How the data were processed

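Estimated counts per gene symbol were deposited by the authors as 1 table per line. Salmon 1.5.2, DESeq2 and GRCh38.p13 appear in the submitters' processing notes, with no role given for any of them, and libraries were made with a stranded mRNA kit, per the labels. Neither the strand setting nor the annotation release is stated in the labels or file headers. Columns were matched to samples by name, and 24 columns that match no sample were not used.

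Counts were rounded and fitted per line over its 8 groups with edgeR 4.0.16 (R 4.3.3): filterByExpr (minimum count 10, total 15), TMM scaling and the quasi-likelihood test, with Benjamini-Hochberg adjustment over all genes tested. Differences between lines came from a fit of both tables over 16 groups (23759 genes). An SE is the absolute log2 fold change divided by the square root of F. An interval is nominally 95%, from this SE and a normal quantile. It is therefore narrower than an interval from the F distribution of the test. The scripts were tested on simulated data.

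The members, the lists and the comparisons were chosen with earlier results of these data known. Values per library are given for the called member with the largest fall and rise of each role and line, and for the 4 with the largest called difference between compounds and between lines. CTPS2 and TYMS were added after their values were seen. Same-numbered libraries deviated together, with every correlation over 0.1, in 7 of the 8 comparisons with vehicle (correlations from 0.112 to 0.714). For PMR-116 at 12 h in Mv4;11 they were also positive but partly below that cut, at 0.258, 0.0919 and 0.0738. The fits used above had no replicate block, which was run as an alternative. Alternatives were DESeq2 1.42.0, its size factors, library totals, no filter, fits of 2 groups, the replicate block and leaving out each library. Promoter sequences are from RefSeq (GRCh38.p14). The values of 1 gene of the folate list are not reported here.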

Additional observations from a re-analysis of the deposited data

Results flagged for a closer look

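Within the KG-1 groups of 4 libraries, 1 library lay far from the other 3 in 16 of 288 sets of member levels, by Dixon's test, which chance alone flags in about 1 of 20 sets. Among purine genes these were PPAT at 42.8 CPM and IMPDH1 at 189 CPM in the vehicle for PMR-116 at 3 h, and GART at 267 CPM in the vehicle for CX-5461 at 3 h. CTPS1 was at 120 CPM in 1 library of the vehicle for CX-5461 at 3 h. Among genes of deoxynucleotide supply, RRM2 was at 179 CPM in the vehicle for CX-5461 at 12 h and at 145 CPM after PMR-116 at 12 h. DTYMK was at 72.8 CPM after CX-5461 at 12 h, DCTD at 101 CPM in the vehicle for PMR-116 at 12 h, and DCTPP1 at 146 CPM after PMR-116 at 3 h. SAMHD1 was at 16 CPM in the vehicle for PMR-116 at 12 h and at 12 CPM after PMR-116 at 12 h. DCK was at 30.9 CPM in the vehicle for PMR-116 at 12 h, and HPRT1 at 78.2 CPM and CMPK1 at 70.3 CPM in that for PMR-116 at 3 h. NME1 at 263 CPM and NME2 at 500 CPM stood apart in the vehicle for CX-5461 at 12 h.

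The effect of a compound differed between the lines for some members, by a test of the difference itself. At 3 h it did so in 5 members for PMR-116 (6.94% of all genes) and in 2 for CX-5461 (3.07%). At 12 h it did so in 34 for PMR-116 (25.4%) and in 31 for CX-5461 (16.2%). Line and batch cannot be told apart in these comparisons. The effect in Mv4;11 differed between 12 h and 3 h in 31 members for PMR-116 (27.6% of all genes) and in 29 for CX-5461 (16.7%).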

How the results depend on the processing

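Counts of members called in Mv4;11 at 12 h, against vehicle and between compounds, lines or times, stayed within 1.5 times the values above under each alternative run. In the comparisons with vehicle and between compounds, no value of a called member reversed under any alternative run. Over single genes and alternatives in these comparisons, 1827 values kept their side of the threshold, 66 gained a call and 79 lost one. Reversal of single genes was not checked for the differences between times and lines. The smaller counts moved. In KG-1 against vehicle, the count for PMR-116 at 3 h was 2 with DESeq2, 1 in a fit of 2 groups and 4 with the replicate block. For CX-5461 at 3 h it was 1 with DESeq2 and 5 with the block. For PMR-116 at 12 h it was 7 with DESeq2, 7 with library totals, 1 in a fit of 2 groups and 12 with the block, and for CX-5461 at 12 h it was 0 in a fit of 2 groups. The KG-1 difference between compounds at 12 h gave 1 with DESeq2, 1 with library totals and 3 with the block, and the KG-1 difference between times for PMR-116 gave 3 with the block. The Mv4;11 difference between compounds at 3 h gave 1 with no filter. The line difference for PMR-116 at 3 h gave 10 with DESeq2, 8 with its size factors in edgeR, 8 with no filter and 8 with the block, and that for CX-5461 at 3 h gave 1 with no filter. The replicate block changed no other count by more than 1.5 times. In KG-1 it also called more of all genes. After PMR-116 at 12 h it called 1649 higher and 1549 lower of 18618, against 880 and 882 without it. There DESeq2 called 1136 higher and 1119 lower, and library totals 997 and 986. For the KG-1 difference between compounds at 12 h, DESeq2 called 35 higher and 56 lower, and library totals 12 and 14. For the line difference after PMR-116 at 3 h, DESeq2 called 929 higher and 1320 lower of 23759. Its size factors in edgeR gave 732 and 1026, and the block 1267 and 1190, against 891 and 759 by the fit used above.

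Leaving out 1 library at a time gave 8 to 15 members for PMR-116 and 3 to 5 for CX-5461 in Mv4;11 at 3 h. In KG-1 it gave 0 to 1 for either compound at 3 h, 1 to 5 for PMR-116 at 12 h and 1 to 2 for CX-5461 at 12 h. The line differences at 3 h ran from 5 to 10 for PMR-116 and from 1 to 2 for CX-5461. The causes were not tested. A planned comparison of protein sequences between the paired enzymes was not run. In KG-1, GART passed at -0.16 ± 0.04 and UMPS at 3 h, at 0.38 ± 0.18, did not.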
